A study of Mus musculus with 8 samples.

Results

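The SLC25 genes encode the mitochondrial carrier family. Here 46 of them were followed in lung mesenchyme of mouse embryos with 1 or both alleles of Sin3a floxed for conditional deletion. They are the genes of the deposited count table whose symbol is Slc25a followed by a number, Slc25a31 excepted, 46 of 51912 genes in all. RNA came from mesenchymal cells sorted from lungs at embryonic day 16, with 4 control and 4 Sin3a CKO libraries labelled as biological replicates. All embryos carried Tbx4rtta, which drives rtTA from Tbx4, a gene of lung mesenchyme, and tetocre, and their mothers were fed doxycycline from embryonic day 12. Controls were Sin3a F/+, with 1 floxed and 1 wild-type allele, and Sin3a CKO embryos were Sin3a F/F, with both alleles floxed. Sin3a encodes the scaffold of a histone deacetylase corepressor complex. The design asks which genes differ between these genotypes. The labels do not say whether the animals shared litters, so p-values measure the spread between these libraries.

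Carriers of this family move metabolites across the inner mitochondrial membrane, which charged molecules cross poorly without a transport protein. They exchange ADP for ATP, bring in phosphate for ATP synthesis, pass citrate, malate and aspartate between mitochondrion and cytosol, and supply cofactors, amino acids and iron. The label of an inner membrane family is not exact for every member: Slc25a17 encodes a peroxisomal carrier and Slc25a46 an outer membrane protein. They have been kept because the symbol alone chose the members.

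Totals ran from 96098322 to 108493347 counts per library, and genes above 0 counts from 25015 to 33188. Sin3a itself was at 46.2 to 58.7 CPM (counts per mega-count of the library, its size scaled by TMM) in controls and 53.2 to 61.0 CPM in Sin3a CKO. Which exons are floxed is not stated in the labels, so counts over the whole gene do not check the genotype. All 10 mesenchyme markers were present, with a summed level of 17110 to 23390 CPM in controls and 12430 to 14000 CPM in Sin3a CKO, and 5 of them fell and 1 rose. Most of this sum came from Col1a1, Col1a2 and Col3a1, with means of 3777, 3793 and 9035 CPM in controls and 1991, 2300 and 6078 CPM in Sin3a CKO. Pdgfra and Foxf1 also fell, Meox2 rose, and Tcf21, Tbx4, Tbx5 and Vim did not pass. Of 14 erythroid markers 6 rose and 1 fell, and their sum was 110.1 to 892.6 CPM in controls and 1100 to 4295 CPM in Sin3a CKO. The epithelial sum, 53.2 to 429.3 CPM in controls and 51.2 to 1264 CPM in Sin3a CKO, overlapped between groups. So did the immune sum, 17.2 to 479.1 CPM in controls and 232.9 to 386.9 CPM in Sin3a CKO. The endothelial sum, 39.6 to 180.9 CPM in controls and 49.2 to 102.8 CPM in Sin3a CKO, overlapped too. Transcripts of other cell types thus varied widely among the controls. Library identifiers carry 3 prefixes of unstated meaning: Control 4 alone has s722, Sin3a CKO 4 shares s686 with Control 1 and Control 2, and Sin3a CKO 1 to 3 share s1244 with Control 3.

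In Sin3a CKO mesenchyme, Slc25a1 (citrate), Slc25a10 (dicarboxylates), Slc25a3 (phosphate), Slc25a38 (glycine), Slc25a15 (ornithine), the iron carrier genes Slc25a28 and Slc25a37, and Slc25a39 (glutathione) were among those that rose. Slc25a13 (aspartate and glutamate), Slc25a20 (acylcarnitines), Slc25a24 (ATP-Mg) and Slc25a30 (uncoupling protein-like) fell. Carriers of like cargo did not all have the same call. Of 10 ratios between such carriers 0 passed the main permutation test, which cannot decide on any single pair. Of the 46 genes 41 passed the filter on low counts. By edgeR's quasi-likelihood test, adjusted over all 20315 genes tested, 15 rose, 4 fell and 22 did not pass. Over all genes tested 17.3% rose and 16.1% fell, 33.4% in all, against 36.6%, 9.76% and 46.3% of the 41 carriers. Abundant genes were called more often. At a mean of at least 10 CPM, 57.6% of 9901 genes were called (30.4% rose and 27.1% fell), and of the 31 carriers at that level 61.3% were called (48.4% rose and 12.9% fell). The share called was thus near that of other genes of such abundance, with more rises than falls among the carriers, a split that was not tested. The median log2 fold change, Sin3a CKO over control, was 0.15 for the 41 carriers and 0.04 for all genes tested.

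The 4 Sin3a CKO libraries lay beyond the 4 controls for 19 of the 41 tested carriers (46.3%), against 36.1% of all tested genes. These 19 were the called carriers. The direction of the 19 was the same within prefix s686 and within prefix s1244, where there is 1 library on one side and so no test. RNA was measured in bulk, so fewer cells of a type and less RNA per cell cannot be told apart. The summed level of the 46 genes was 2277 ± 86.2 CPM (SD, n = 4) in controls and 2736 ± 149 CPM in Sin3a CKO. Slc25a39, Slc25a5 and Slc25a3 made up 18.2%, 16.9% and 16.1% of this difference in means.

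**Figure D1:**
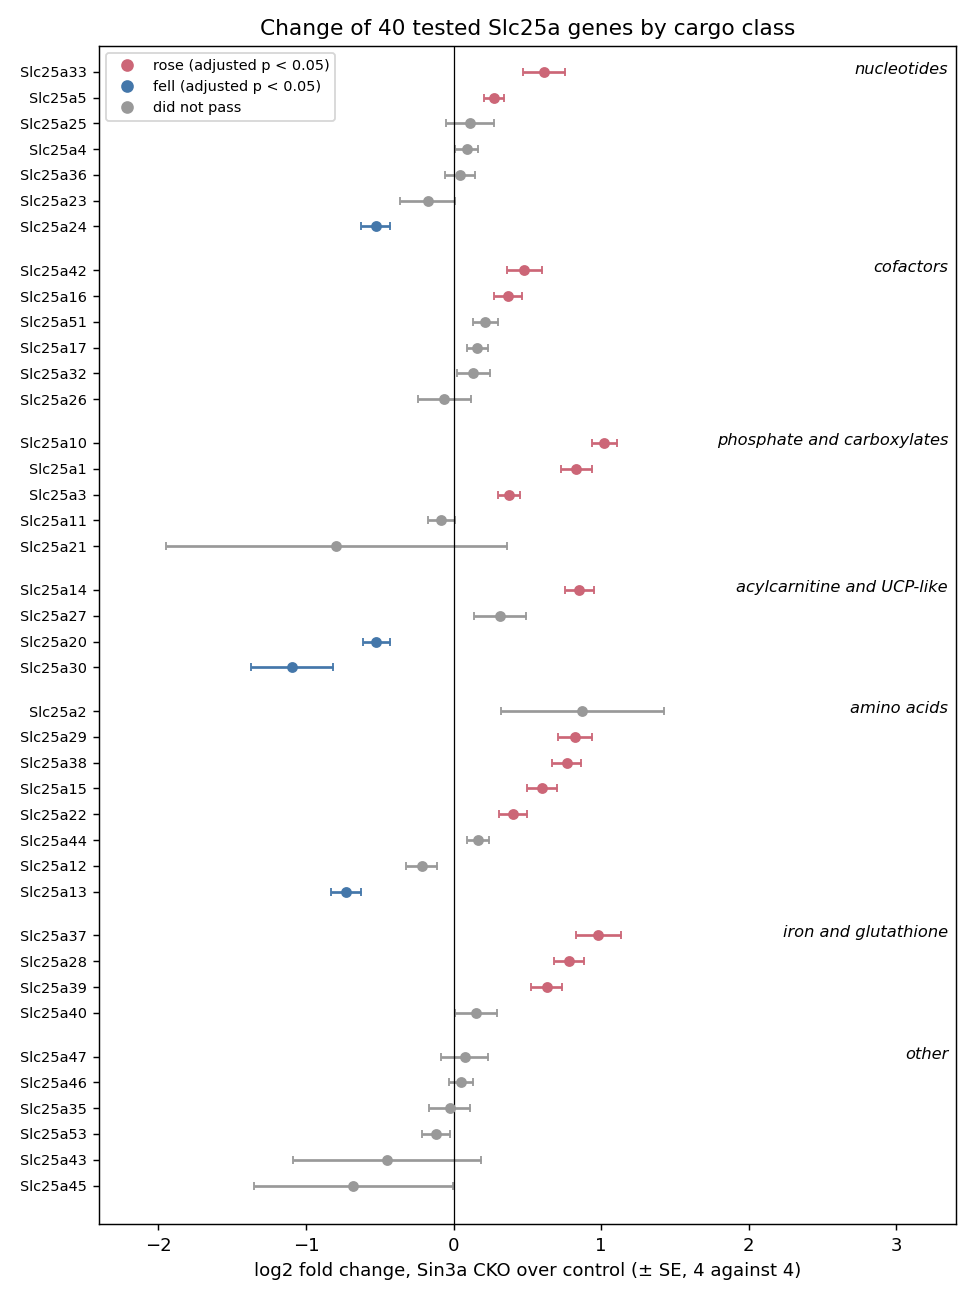
Log2 fold change, Sin3a CKO over control, for 40 of the 41 tested Slc25a genes, grouped by cargo and ordered by change (points, edgeR estimates; bars, SE; 4 against 4 libraries). The 15 genes that rose lie between 0.28 and 1.02, and the 4 that fell lie between -0.52 and -1.09.

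Levels differed widely between carriers. Scaled by exon length, so that genes can be compared, the mean over 8 libraries was 247.5 CPM per kb for Slc25a5 and 169.8 CPM per kb for Slc25a4, which both encode ADP/ATP carriers. The next were Slc25a39 at 70.4, Slc25a11 at 53.3, Slc25a3 at 51.0, Slc25a1 at 42.8 and Slc25a17 at 35.1 CPM per kb. These lengths join the exons of all annotated transcripts, so a gene with long alternative ends is set too low. At the other end 4 of the tested carriers, Slc25a2, Slc25a21, Slc25a30 and Slc25a43, had a mean under 1 CPM. The 5 genes that did not pass the filter had 63 counts for Slc25a34, 46 for Slc25a48, 45 for Slc25a18, 5 for Slc25a41 and 2 for Slc25a54, summed over 8 libraries. Control 3 alone gave 31 of the 63 counts of Slc25a34, 21 of the 46 of Slc25a48, 20 of the 45 of Slc25a18 and all 5 of Slc25a41.

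**Figure D2:**
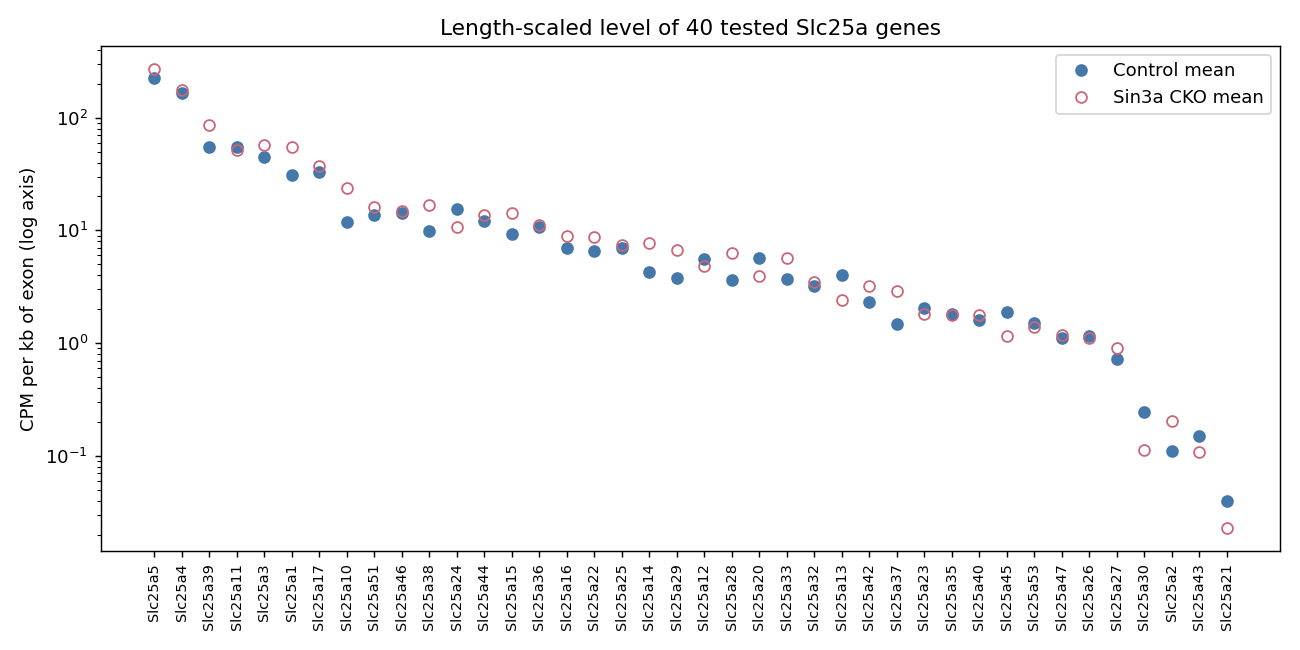
Length-scaled level (CPM per kb of exon, log axis) of 40 of the 41 tested Slc25a genes as group means over 4 libraries, ordered by the mean over all libraries. Slc25a5 and Slc25a4 stand highest at 247.5 and 169.8 CPM per kb over all libraries, and the difference between the groups is small beside the range among genes.

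Promoter sequences of the carriers were searched for the letters of known motifs. SIN3 complexes are known to be brought to E-boxes, CACGTG, by dimers of MAX with MXD proteins. RefSeq promoter windows (GRCm38.p6, 250 bases before to 50 bases after a start) were found for 35 of the 46 genes, 45 windows in all. An E-box, read on both strands, was in the windows of 6 of the 35 genes (17.1%) and of 8.09% of 27025 genes with a window. It was found for 4 of 14 carriers that rose, 1 of 4 that fell and 1 of 13 that did not pass. These numbers are small, the 27025 genes were not limited to those expressed here, and no difference in share was tested. The stretches that hold it are given here on the gene's strand, upstream of the RefSeq start, with the E-box in capitals:
Slc25a1 (rose), chr16:17928393-17928469, minus strand: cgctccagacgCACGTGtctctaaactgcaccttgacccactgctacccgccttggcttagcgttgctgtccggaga
Slc25a14 (rose), chrX:48623334-48623412, plus strand: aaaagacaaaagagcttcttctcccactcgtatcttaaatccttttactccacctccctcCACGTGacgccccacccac
Slc25a15 (rose), chr8:22398289-22398414, minus strand: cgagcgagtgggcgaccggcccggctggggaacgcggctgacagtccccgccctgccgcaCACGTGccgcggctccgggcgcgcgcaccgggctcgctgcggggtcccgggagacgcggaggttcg
Slc25a33 (rose), chr4:149774268-149774287, minus strand: cccggcctccgcCACGTGac
Slc25a13 (fell), chr6:6217233-6217358, minus strand: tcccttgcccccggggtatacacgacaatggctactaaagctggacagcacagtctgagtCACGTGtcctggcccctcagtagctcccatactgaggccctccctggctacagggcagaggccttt
Slc25a36 (did not pass), chr9:97111163-97111288, minus strand: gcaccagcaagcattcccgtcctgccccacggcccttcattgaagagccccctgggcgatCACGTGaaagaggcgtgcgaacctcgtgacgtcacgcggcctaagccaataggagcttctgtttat

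Counted from the RefSeq start, the first base of the E-box was at position -239 in Slc25a1, -125 in Slc25a13, -77 in Slc25a15, -8 in Slc25a33 and -187 in Slc25a36. Slc25a14 has 2 annotated starts, and the same E-box was at -54 from the first and -184 from the second. In GENCODE M21 the minus-strand genes Slc25a15 and Slc25a33 begin further upstream, at 22398597 and 149774277. Their E-boxes thus lie within the annotated genes, though upstream of the RefSeq start. A motif of nuclear respiratory factor 1 (NRF1), in capitals here, was in 1 of the 35 genes (2.86%, against 5.19% of all genes), the phosphate carrier gene Slc25a3:
Slc25a3 (rose), chr10:91124112-91124217, minus strand: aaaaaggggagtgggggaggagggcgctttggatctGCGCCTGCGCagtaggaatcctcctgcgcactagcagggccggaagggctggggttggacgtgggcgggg
Further motifs were rarer or near the share of all genes. YY1 (AANATGGC) was found for 2 genes (5.71%, against 6.96%), ETS (CCGGAAGT) for 1 (2.86%, against 4.31%), and ERR (TNAAGGTCA) and E2F (TTTCCCGC or TTTGGCGC) for none of the 35 genes, against 1.43% and 1.80%. These are matches of letters in these windows and say nothing of binding.

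Among carriers of phosphate and carboxylates 3 of 5 tested genes rose, none fell and 2 did not pass. Counts by cargo class, here and below, stand beside 17.3% rising and 16.1% falling of all genes tested. At a mean of at least 10 CPM these shares were 30.4% and 27.1%, and no class was tested against them. Slc25a10 (ENSMUSG00000025792, chromosome 11, 120491840 to 120499187, GRCm38) encodes the dicarboxylate carrier, which exchanges malate or succinate for phosphate. Its level was 40.4, 40.8, 39.2 and 42.9 CPM in the controls, in the order of their replicate numbers, as in all such lists, against 71.8, 81.6, 88.7 and 89.6 CPM with both alleles floxed. Every Sin3a CKO library was well above the highest control, a rise of 1.02 ± 0.08 (log2 fold change ± SE, 4 against 4 libraries; edgeR's adjusted p = 4.77e-05), the smallest p of the family. An antisense gene, Gm11788, overlaps 6.6% of the exon bases of Slc25a10 and may share reads with it.

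Slc25a1 (chromosome 16, 17925223 to 17928219), the citrate carrier that exports citrate for cytosolic acetyl-CoA, had 66.5, 63.2, 65.0 and 71.5 CPM in controls and 103.8, 117, 143 and 109.8 CPM in Sin3a CKO. It rose by 0.83 ± 0.10 (adjusted p = 0.000281), without overlap and with Sin3a CKO 3 highest. The main phosphate carrier gene, Slc25a3, with the NRF1 match shown above, had 241, 249, 238 and 257 CPM in controls against 287, 321, 348 and 324 CPM in Sin3a CKO. It rose by 0.38 ± 0.08 (adjusted p = 0.00363). With length and GC trends removed its change was 0.40 ± 0.15 and did not pass (adjusted p = 0.0858, within a range of 2.56e-05 to 0.0858 over the alternatives).

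Slc25a11, the oxoglutarate-malate carrier of the malate-aspartate shuttle, was at -0.08 ± 0.09 and did not pass. It ranged from 112 to 122 CPM in controls and 99.5 to 128 CPM in Sin3a CKO. Without Sin3a CKO 3, its highest library, it fell by 0.21 (adjusted p = 0.0283, within a range of 0.0283 to 0.894 over the alternatives). Slc25a21, an oxodicarboxylate carrier gene, had at most 0.482 CPM in any library and did not pass.

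Acylcarnitine and uncoupling protein-like carriers moved in both directions, with 1 of 4 rising and 2 falling. Slc25a20, the carnitine-acylcarnitine carrier that brings fatty acids to oxidation, had 25.5, 26.7, 27.6 and 29.8 CPM in controls and 19.1, 19.3, 20.99 and 16.9 CPM in Sin3a CKO. It fell by 0.52 ± 0.09 (adjusted p = 0.00203), and all Sin3a CKO libraries lay under the lowest control.

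Slc25a14, an uncoupling protein-like gene on the X chromosome, had 10.9, 9.68, 9.15 and 10.8 CPM in controls and 17.6, 17.7, 18.6 and 19.1 CPM in Sin3a CKO. Libraries within each group lay close together, and the gene rose by 0.85 ± 0.10 (adjusted p = 0.000192). Its relative Slc25a30 went the other way, from 1.38, 1.02, 0.946 and 1.08 CPM in controls to 0.413, 0.442, 0.631 and 0.587 CPM in Sin3a CKO. That fall of 1.09 ± 0.28 (adjusted p = 0.0126) was not past the threshold without Control 1, its highest library (-0.97 ± 0.32, adjusted p = 0.0519, within a range of 0.0015 to 0.0519). Slc25a27, also uncoupling protein-like, was at 0.32 ± 0.18 and did not pass.

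Of 8 tested amino acid carriers 4 rose, 1 fell and 3 did not pass. Slc25a38, which carries glycine into mitochondria for haem synthesis, had 27.8, 25.0, 26.6 and 30.1 CPM in controls and 41.2, 43.6, 51.9 and 49.4 CPM in Sin3a CKO, and rose by 0.77 ± 0.10 (adjusted p = 0.000299). Slc25a29, a carrier of basic amino acids, had 9.52, 9.16, 10.4 and 10.4 CPM in controls against 18.9, 14.7, 16.8 and 19.4 CPM, a rise of 0.82 ± 0.12 (adjusted p = 0.000565). In both genes the lowest Sin3a CKO library was above the highest control.

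Slc25a15 encodes the main ornithine carrier of the urea cycle and had 52.2, 50.02, 50.5 and 57.7 CPM in controls. In Sin3a CKO it had 76.0, 83.3, 67.6 and 92.3 CPM, and it rose by 0.60 ± 0.10 (adjusted p = 0.00148). Slc25a22, a glutamate carrier, rose by 0.40 ± 0.10 (adjusted p = 0.00943), from 41.5, 36.4, 36.3 and 44.0 CPM to 48.4, 49.2, 52.1 and 59.4 CPM. Its groups were separated by a narrow gap between Control 4 and Sin3a CKO 1.

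The fall among amino acid carriers was in Slc25a13 (chromosome 6, 6041218 to 6217173), which encodes citrin, a calcium-regulated aspartate-glutamate carrier of the malate-aspartate shuttle. It had 15.7, 16.2, 15.1 and 14.3 CPM in controls and 9.48, 9.46, 8.27 and 9.76 CPM in Sin3a CKO. The fall of 0.73 ± 0.10 (adjusted p = 0.000522) left no overlap. Slc25a12, which encodes the other aspartate-glutamate carrier, had 39.9, 37.0, 40.98 and 47.1 CPM in controls and 30.7, 40.0, 34.6 and 36.7 CPM in Sin3a CKO. Its groups overlapped, and the change of -0.22 ± 0.10 did not pass (adjusted p = 0.142). It was past the test with upper-quartile scaling, without a filter and at a mean of at least 10 CPM (adjusted p = 0.0198, 0.0368 and 0.0295, within a range of 0.0198 to 0.689). The branched-chain amino acid carrier gene Slc25a44 was at 0.17 ± 0.07 and the ornithine carrier gene Slc25a2, at 0.0939 to 0.390 CPM over all libraries, at 0.87 ± 0.55, and neither passed. With a block for identifier prefix Slc25a44 was at 0.24 ± 0.08 and past the test (adjusted p = 0.0427, within a range of 0.0427 to 0.753).

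**Figure D3:**
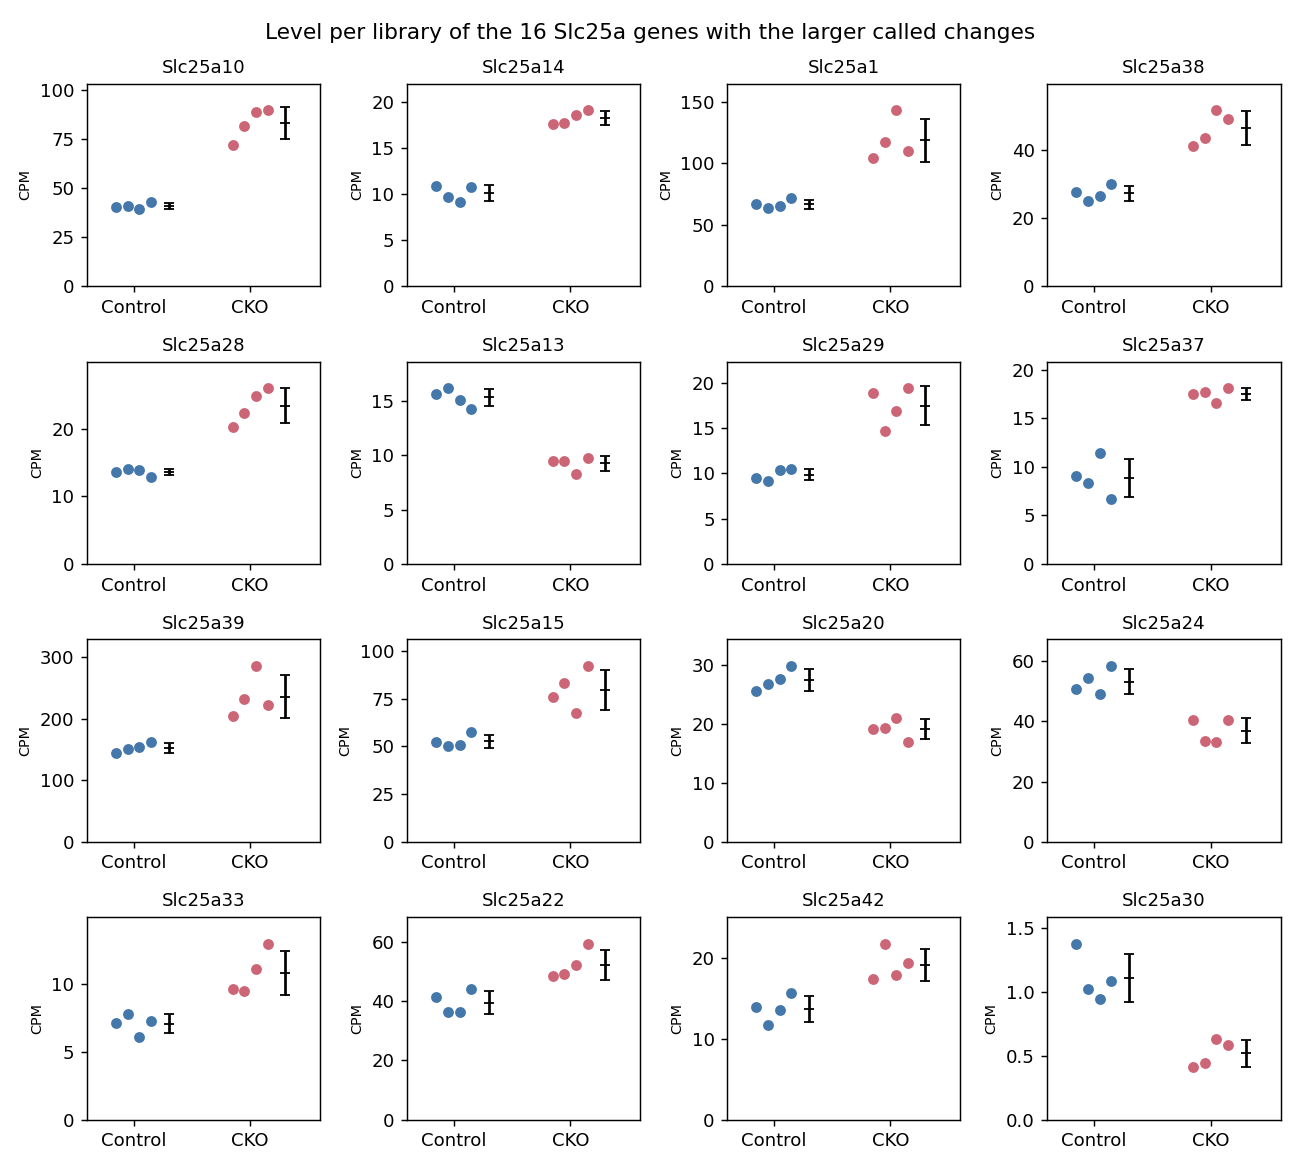
Level in each library (CPM; blue, Control 1 to 4 from left to right; red, Sin3a CKO 1 to 4) of the 16 called Slc25a genes with an absolute log2 fold change of at least 0.4, with mean and SD in black. In each panel the groups do not overlap, and Slc25a13, Slc25a20, Slc25a24 and Slc25a30 are the 4 genes that are lower in Sin3a CKO.

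Of 4 iron and glutathione carriers 3 rose and 1 did not pass. All 4 had a mean above 10 CPM, where 30.4% of all genes rose, and the class was not tested against that share. Slc25a37 and Slc25a28 encode mitoferrin 1 and mitoferrin 2, which import iron for haem and iron-sulfur clusters, the first mainly in erythroid cells. Slc25a37 had 9.08, 8.35, 11.4 and 6.67 CPM in controls and 17.5, 17.7, 16.6 and 18.2 CPM in Sin3a CKO, a rise of 0.98 ± 0.15 (adjusted p = 0.00102). Gm16867, a protein-coding gene at 1.17 CPM that matches Slc25a37 over 251 bases at 100% identity, may share reads with it. On the opposite strand Gm31748 and Gm27223 overlap 6.3% and 1.5% of the exon bases of Slc25a37. Slc25a28 had 13.6, 14.04, 13.9 and 12.9 CPM in controls and 20.3, 22.3, 24.9 and 26.1 CPM in Sin3a CKO, a rise of 0.78 ± 0.10 (adjusted p = 0.000347). Both mitoferrin genes were thus higher in every Sin3a CKO library than in any control.

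Slc25a39, which carries glutathione into mitochondria, had 144, 150.3, 154 and 162 CPM in controls and 204, 232, 286 and 222 CPM in Sin3a CKO. It rose by 0.63 ± 0.10 (adjusted p = 0.00133). Its relative Slc25a40 had 15.03, 11.8, 13.0 and 13.6 CPM in controls and 15.1, 14.7, 11.5 and 17.9 CPM in Sin3a CKO. The groups of Slc25a40 overlapped, and its change of 0.15 ± 0.14 did not pass.

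Erythroid transcripts moved with the groups beside Slc25a37, Slc25a38 and Slc25a39, genes known for roles in haem synthesis or iron handling. Of the 14 erythroid markers counted, 6 rose (Hba-a1, Hbb-bs, Hbb-bt, Alas2 and Slc4a1 among them), 1 fell (Epor) and 7 did not pass, and none was at 0 in all libraries. Alas2, the erythroid enzyme that starts haem synthesis, went from 3.56 ± 3.76 CPM (SD, n = 4) to 23.0 ± 8.89 CPM. Among controls Control 3 had the highest erythroid sum and the highest Slc25a37 level, 892.6 and 11.4 CPM. Sin3a CKO 4 had a near sum, 1100 CPM, with Slc25a37 at 18.2 CPM. Within Sin3a CKO the sum ran from 1100 to 4295 CPM while Slc25a37 stayed between 16.6 and 18.2 CPM, lowest where the sum was highest. The part of erythroid cells in these rises was not tested.

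**Figure D4:**
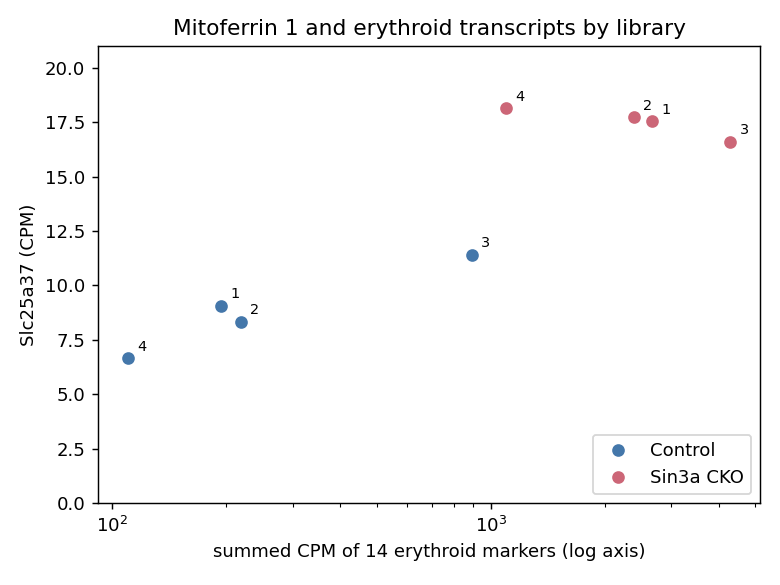
Slc25a37 level (CPM) against the summed level of 14 erythroid markers (CPM, log axis) in each library; numbers are replicate numbers. Controls lie at 6.67 to 11.4 CPM and Sin3a CKO libraries at 16.6 to 18.2 CPM of Slc25a37, and the erythroid sum of Control 3 (892.6 CPM) is near that of Sin3a CKO 4 (1100 CPM).

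Of 7 tested nucleotide carriers 2 rose, 1 fell and 4 did not pass. Slc25a5, an X-linked ADP/ATP carrier gene used widely in growing cells, had 381, 379, 358 and 358 CPM in controls and 413, 437, 471 and 464 CPM in Sin3a CKO. It rose by 0.28 ± 0.07 (adjusted p = 0.0133), without overlap, but did not pass in 6 of 19 alternatives, among them those without Control 4 (0.20 ± 0.07, adjusted p = 0.0594) and without Sin3a CKO 4 (0.22 ± 0.08, adjusted p = 0.0662). With length and GC trends removed the change was 0.18 ± 0.14 (adjusted p = 0.443, within a range of 0.00166 to 0.443). Gm5560, a processed pseudogene at 0.530 CPM that matches Slc25a5 over 887 bases at 98.3% identity, may share reads with it.

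Slc25a4, the ADP/ATP carrier gene that dominates in heart and muscle, had 386, 388, 377 and 399 CPM in controls and 379, 414, 463 and 391 CPM in Sin3a CKO. The groups overlapped, with Sin3a CKO 3 highest, and the change of 0.09 ± 0.08 did not pass. It was at -0.02 ± 0.07 with upper-quartile scaling, which moved the median of all genes by -0.11.

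Slc25a24, a calcium-regulated ATP-Mg/phosphate carrier, had 50.6, 54.5, 49.1 and 58.4 CPM in controls and 40.4, 33.4, 33.1 and 40.5 CPM in Sin3a CKO. It fell by 0.53 ± 0.10 (adjusted p = 0.00235). The related carriers did not pass. Slc25a23 was at -0.18 ± 0.19, with 8.97, 10.3, 11.8 and 12.2 CPM in controls and 10.3, 8.71, 12.4 and 6.89 CPM in Sin3a CKO. Slc25a25 was at 0.11 ± 0.16, with 49.0, 53.1, 43.8 and 71.3 CPM against 55.9, 56.6, 49.6 and 72.6 CPM. Control 4 and Sin3a CKO 4 stood highest in their groups for Slc25a25. With a block for identifier prefix, which takes Control 4 out of the comparison, Slc25a25 was at 0.40 ± 0.09 and past the test (adjusted p = 0.00876, within a range of 0.00876 to 0.986).

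Slc25a33, a pyrimidine nucleotide carrier gene that is known to respond to insulin-like growth signals, had 7.12, 7.74, 6.10 and 7.28 CPM in controls and 9.58, 9.49, 11.1 and 12.9 CPM in Sin3a CKO. It rose by 0.61 ± 0.14 (adjusted p = 0.00838). An antisense gene, Gm13068, overlaps 14.9% of its exon bases, and without a stated use of strand their reads cannot be told apart. The other pyrimidine nucleotide carrier gene, Slc25a36, had 104, 92.8, 104 and 114 CPM in controls and 112, 102, 89.9 and 123 CPM in Sin3a CKO, and its 0.04 ± 0.10 did not pass.

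Of 7 cofactor carriers 2 rose, none fell and 5 did not pass. Slc25a42, which carries coenzyme A into mitochondria, had 14, 11.8, 13.6 and 15.6 CPM in controls and 17.4, 21.8, 17.9 and 19.4 CPM in Sin3a CKO, and rose by 0.48 ± 0.12 (adjusted p = 0.011). Slc25a16, linked to coenzyme A accumulation from work in yeast, had 32.9, 30.1, 32.0 and 38.3 CPM in controls against 43.5, 39.3, 41.2 and 47.9 CPM, and rose by 0.37 ± 0.10 (adjusted p = 0.0152). The gap between Control 4 and Sin3a CKO 2 was narrow. Slc25a16 did not pass without Control 1 or without Control 2 (adjusted p = 0.0501 and 0.0562) or with length and GC trends removed (0.35 ± 0.18, adjusted p = 0.196), within a range of 0.00274 to 0.196. Without a filter on low counts neither passed (adjusted p = 0.053 for Slc25a42, the highest of its range from 0.000748, and 0.0892 for Slc25a16).

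Slc25a51, the mitochondrial NAD carrier gene, was at 0.22 ± 0.09 and did not pass (adjusted p = 0.0839). It had 70.3 to 88.6 CPM in controls and 84.6 to 93.1 CPM in Sin3a CKO, with Control 4 highest among controls. Without Control 4 it was at 0.24 ± 0.06 and passed (adjusted p = 0.0184), as it did with a block for replicate number, with a block for prefix and at a mean of at least 10 CPM (adjusted p = 0.0412, 0.00614 and 0.0267, within a range of 0.00614 to 0.482). The folate and FAD carrier gene Slc25a32 was at 0.13 ± 0.11, and Slc25a26, which imports S-adenosylmethionine, at -0.06 ± 0.18. The peroxisomal Slc25a17 was at 0.16 ± 0.07. None of these passed. With a block for prefix Slc25a17 was at 0.225 ± 0.07 and past the test (adjusted p = 0.0297, within a range of 0.0297 to 0.75).

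The remaining 6 tested carriers, of which Slc25a46 belongs to the outer membrane and the others have no cargo assigned here, did not pass. Their changes ran from -0.68 ± 0.67 for Slc25a45 to 0.08 ± 0.16 for Slc25a47. Slc25a45 differed widely between controls, with 8.52, 7.93, 3.65 and 0.546 CPM, and 2.88, 1.95, 3.42 and 4.63 CPM in Sin3a CKO. Without Control 4, its lowest library, it fell by 1.11 ± 0.35 (adjusted p = 0.0408, within a range of 0.0408 to 0.89). Its levels also differed by prefix, with 8.52, 7.93 and 4.63 CPM in s686 libraries and 1.95 to 3.65 CPM in s1244 libraries. With a block for identifier prefix Slc25a45 was at -0.61 ± 0.24 and did not pass (adjusted p = 0.0867). Slc25a35 was at -0.03 ± 0.14, and 31.3% of its exon bases are shared with Rangrf on the opposite strand.

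Carriers with like cargo were compared within each library by the log2 ratio of their levels, in 10 pairs with both genes tested. The shift of the ratio, Sin3a CKO minus control, was largest for Slc25a14 over Slc25a30, at 1.48 ± 0.07 (SE, 4 against 4). It was -0.65 ± 0.13 for Slc25a24 over Slc25a25, 0.53 ± 0.15 for Slc25a33 over Slc25a36 and -0.19 ± 0.06 for Slc25a4 over Slc25a5. In these 4 pairs all Sin3a CKO libraries lay beyond all controls, which gives the smallest p of an exact 2-sided permutation test over 70 assignments, p = 0.0286 for each. Adjusted over the 10 pairs this is 0.0714, so none of them passed. No pair could pass by itself, however large its shift, as that would take several pairs at this smallest p together. The adjusted test thus cannot decide on any single pair. Each of the 4 pairs holds at least 1 gene called above, so the shifts are not independent of those calls.

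The other 6 ratios overlapped between the groups. Slc25a12 over Slc25a13 shifted by 0.48 ± 0.14 and Slc25a39 over Slc25a40 by 0.48 ± 0.24 (exact permutation p = 0.0571 and adjusted p = 0.0952 for each). The mitoferrins Slc25a28 over Slc25a37 shifted by -0.21 ± 0.16 (exact permutation p = 0.257, adjusted p = 0.286), and Slc25a16 over Slc25a42 by -0.10 ± 0.11 (exact permutation p = 0.486, adjusted p = 0.486). With length and GC trends removed, 6 of the 10 pairs reached the smallest p together. They passed (adjusted exact permutation p = 0.0476 for each), whereas Slc25a4 over Slc25a5 was then at -0.04 ± 0.05.

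**Figure D5:**
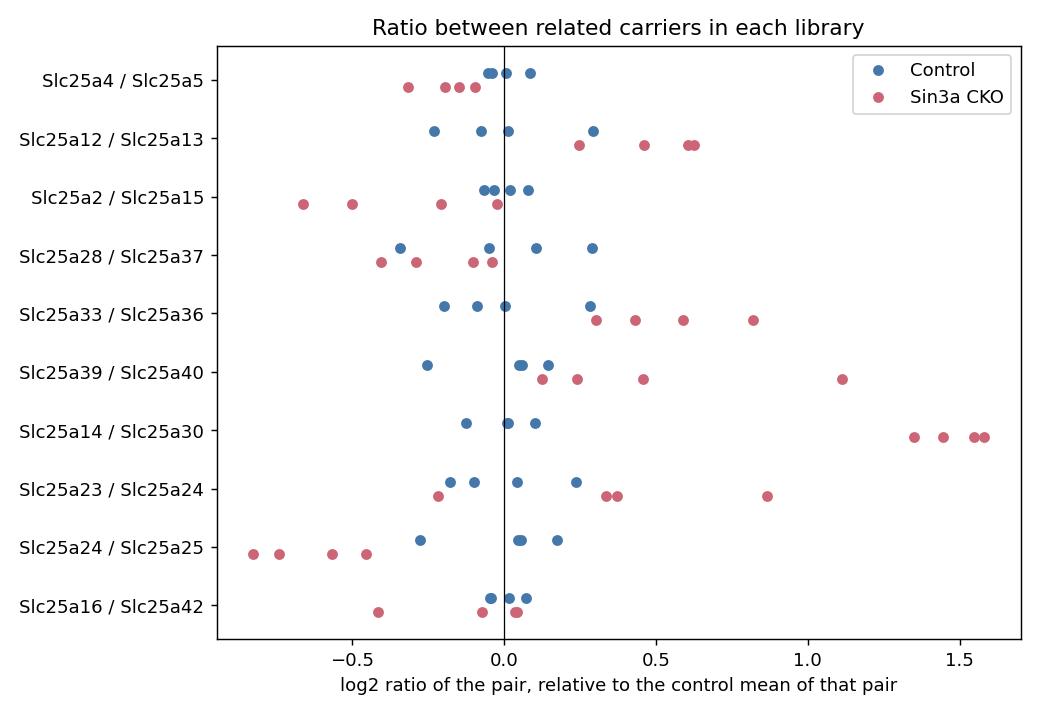
Log2 ratio of CPM between the first and the second gene of each pair in each library, relative to the control mean of that pair (blue, 4 controls; red, 4 Sin3a CKO). For Slc25a14 over Slc25a30 the Sin3a CKO libraries lie 1.48 higher on average, and for Slc25a24 over Slc25a25 they lie 0.65 lower.

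Some carriers lie side by side in the genome. Slc25a29 and Slc25a47 face away from each other on chromosome 12 with 162 bases between them. Slc25a29 rose by 0.82 ± 0.12 whereas Slc25a47 was at 0.08 ± 0.16, with 3.14 to 3.68 CPM in controls and 3.09 to 3.85 CPM in Sin3a CKO. Slc25a43 and Slc25a5 lie 18448 bases apart on the X chromosome, which holds 4 of the 46 genes. With the log2 Xist level as a covariate, since each group held 2 libraries with high Xist, Slc25a5 was at 0.28 ± 0.08 and Slc25a14 at 0.85 ± 0.11, and both still passed (adjusted p = 0.0227 and 0.000568). The carriers that rose had a median GC content of 53.8% (43.4% to 60.6%, 15 genes) in their longest transcript, and those that fell one of 46.2% (42.5% to 48.2%, 4 genes). With length and GC trends removed 12 rose and 4 fell, and Slc25a10 was at 1.37 ± 0.16 and Slc25a1 at 1.00 ± 0.14.

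Genes that work beside the carriers are given as counts, from lists chosen with earlier results of these data known. Beside them stand 17.3% rising and 16.1% falling of all genes tested. At a mean of at least 10 CPM these shares were 30.4% and 27.1%, and no list was tested against them. Of 3 tested family members with other symbols 2 rose, the outer membrane proteins Mtch2 (0.80 ± 0.07, adjusted p = 7.16e-05) and Mtch1 (0.28 ± 0.08, adjusted p = 0.0207), and the uncoupling protein gene Ucp2 was at -0.53 ± 0.24 and did not pass. Of 16 other inner membrane transporters 5 rose, 5 fell and 6 did not pass, with Sfxn2, a sideroflexin, at 1.01 ± 0.07 (adjusted p = 3.14e-05) and Abcb8, an ABC transporter, at -1.44 ± 0.14 (adjusted p = 7.87e-05). With their values already known, the mitochondrial pyruvate carrier genes Mpc1 and Mpc2 are named too, and rose by 0.62 ± 0.07 and 0.72 ± 0.09 (adjusted p = 0.00023 and 0.000395).

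Of 13 genes of carrier import, the route by which SLC25 proteins reach the inner membrane, 7 rose, 1 fell and 5 did not pass. At a mean of at least 10 CPM 57.6% of all genes were called, and the counts here were not tested against that share. Timm10, a chaperone of the space between the membranes, rose by 1.42 ± 0.09 (adjusted p = 1.71e-05), and Agk, a subunit of the TIM22 translocase, fell by 0.43 ± 0.07 (adjusted p = 0.00151). Timm22, the channel of that translocase, was at 0.08 ± 0.09 and did not pass. Of 20 enzymes and channels that share cargo with the carriers 7 rose, 3 fell and 10 did not pass. Among them Hk2, a mitochondria-bound hexokinase, rose by 1.34 ± 0.12 (adjusted p = 7.11e-05) and Nmnat3, a mitochondrial enzyme of NAD synthesis, fell by 1.51 ± 0.22 (adjusted p = 0.000719).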

How the data were processed

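RNA was measured by sequencing in 4 control and 4 Sin3a CKO libraries. Per the labels' protocols, TRIzol was used for RNA, and Takara SMARTer v4 cDNA went into Nextera XT libraries, with no mention of molecular identifiers, so counts can include PCR copies. Per the submitters' processing notes, STAR 2.5.3a, RSEM 1.3.0, edgeR and mm10 were used. Neither the gene annotation nor any use of strand in counting is stated there. The authors deposited RSEM expected counts per gene, not normalized, and as 100% of the values were already whole, none was altered by rounding.

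The tests were run with edgeR 4.0.16 (R 4.3.3). Genes were kept by filterByExpr (minimum count 10), libraries were scaled by TMM, and group was the only term in a 2-sided quasi-likelihood test with robust dispersions. A Benjamini-Hochberg adjusted p under 0.05 over all genes was a call, and "rose", "fell" and "passed" refer to it. The SE is the absolute change over the square root of F. Coordinates, exon lengths and GC content came from GENCODE M21 (GRCm38), which held all 46 members, and near copies were sought with BLAST 2.17.0 (at least 95% identity over 50% of the shorter transcript). Pair ratios used CPM + 0.5. Simulated counts were used to test the fit.

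Alternatives were DESeq2 1.42.0, limma-voom (limma 3.58.1), scaling by RLE or by upper quartile, keeping every gene, keeping genes at a mean of 10 CPM or more, blocks for replicate number and prefix, a log2 Xist covariate, removal of smooth length and GC trends per library (mgcv 1.9.3), and each library left out in turn. Omission of Control 4 and Sin3a CKO 3 together was chosen after seeing the data. The members, lists and pairs were chosen with earlier results of these data known. Values in every library are given for the called members with an absolute log2 fold change of at least 0.4, for members of pairs with a called gene and for the member of highest level, with Slc25a3 and Slc25a45 added after their values were seen. Slc25a2, in a pair with Slc25a15, is given by its range. Of each other list the called gene with the smallest p in each direction is named, and Mtch1, Ucp2 and Timm22 were named after their values were seen. No protein sequences were used here. In the counts, 1 tested carrier and 1 erythroid marker are included that are not reported here.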

Additional observations from a re-analysis of the deposited data

How the results depend on the processing

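Over 19 alternatives 14 of the 19 called carriers kept their call wherever they were tested, and none changed direction. The 5 that lost it in at least 1 were Slc25a5, Slc25a16, Slc25a3, Slc25a42 and Slc25a30, with values given above. The number that rose was 12 to 19 and the number that fell 3 to 5. Without 1 library at a time they were 14 to 15 and 3 to 5. With a block for replicate number 16 rose and 4 fell; the deviations of same-numbered libraries correlated at -0.27, 0.28, -0.10 and 0.27, so the numbers are not taken to pair libraries. Of 10 pair ratios 0 passed, also without a pseudocount, and 6 with length and GC trends removed. At an unadjusted exact permutation p under 0.05 there were 4. The number that passed depends on how many pairs reach the smallest p together. Without 1 library at a time, over 35 assignments, 0 of the 10 passed, with adjusted p from 0.0714, and the shift of Slc25a16 over Slc25a42 ran from -0.15 to 0.003, changing sign without Sin3a CKO 2. The shift of the ratio of Slc25a2 over Slc25a15, -0.35 ± 0.15, took the other sign without a pseudocount (0.14 ± 0.48). Changes of named carriers that did not pass took the other sign as follows, and the cause was not tested. Upper-quartile scaling gave -0.051 for Slc25a46, -0.017 for Slc25a4, -0.063 for Slc25a36 and -0.029 for Slc25a47, and no filter gave -0.051, -0.013, -0.059 and -0.026 for the same genes. A mean of at least 10 CPM gave -0.005 for Slc25a36, and a block for prefix 0.085 for Slc25a35. With length and GC trends removed Slc25a35 was at 0.124, Slc25a46 at -0.044, Slc25a26 at 0.081 and Slc25a23 at 0.043. Leaving out 1 library at a time gave -0.015 to 0.127 for Slc25a4, -1.583 to 0.173 for Slc25a21, -0.033 to 0.212 for Slc25a25, -0.253 to 0.006 for Slc25a26, -0.115 to 0.027 for Slc25a35, -0.063 to 0.076 for Slc25a36 and -0.001 to 0.092 for Slc25a47. Without Control 4 and Sin3a CKO 3 together Slc25a4 was at -0.023, and 15 carriers rose and 5 fell. Depth limits the 4 tested carriers under 1 CPM and the 5 not tested.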
